A study of Mus musculus with 24 samples.

Results

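The genes described here carry out or control fatty acid synthesis in the liver: *Srebf1*, *Acaca*, *Acacb*, *Fasn*, *Scd1*, *Elovl5*, *Elovl6*, *Me1*, *Pnpla3* and *Thrsp*. They were taken by their symbols in the deposited tables, where all 10 were found among 54733 genes. Their mRNA was measured by RNA-seq in 24 livers of male C57BL/6 mice, 12 wild type (WT) and 12 ΔRRE. ΔRRE mice are homozygous for a CRISPR-Cas9 deletion of the pair of RREs (binding elements of the nuclear receptors ROR and REV-ERB) at *Bmal1*, the clock gene listed as *Arntl* in the tables. Each genotype had 2 livers at each of 6 time points, namely CT2, CT6, CT10, CT14, CT18 and CT22, where CT is circadian time and the mice were in constant darkness with free access to food. The deletion is carried by every cell of the animal, not by hepatocytes alone. The mutants came from the first of the lines made unless the methods state otherwise. The labels name neither the line nor the age of these mice. For tissue RNA in general the paper gives an age range of the mice, but its RNA-seq methods give none. The comparisons address whether the daily course and the level of these mRNAs depend on the rhythmic transcription of *Bmal1*.

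Hepatocytes turn surplus carbohydrate into fat. Acetyl-CoA carboxylase makes malonyl-CoA, fatty acid synthase builds palmitate from it with NADPH, and elongases and desaturases then lengthen the chain or add a double bond. SREBP-1c, the main product of *Srebf1* in the liver, is made as a membrane protein, is cut and released when insulin signals, and then activates most of these genes, usually together with NF-Y at CCAAT boxes. In nocturnal animals the pathway is known for a daily course linked to night feeding, and REV-ERB, LXR and the carbohydrate sensor ChREBP act on it as well.

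The start regions of the genes were looked at first, since the members are known as targets of a common factor. RefSeq start sites on GRCm38.p6 gave 12 windows for 9 of the 10 genes, with 250 bases before the start site in each, and *Scd1* had none. The windows of *Acaca* (from chr11:84195188) and *Acacb* (from chr5:114165268) lie inside the GENCODE gene models, which begin at 84129672 and 114146535. Windows 2 and 3 of *Srebf1* and window 2 of *Me1* also lie inside. Most of the *Thrsp* window does too, since its gene model on the minus strand reaches up to 97417730. These windows may therefore not be the main start regions, but they are kept in the counts below. For *Pnpla3* and for windows 2 and 3 of *Srebf1*, the bases after the start site were found in no GENCODE transcript. The SREBP-type element TCACNCCAC was found on neither strand in any of the 12 windows, and 1.24% of all 32851 windows held it. The NF-Y letters CCAAT were found in 8 of the 12 windows, which belong to 7 of the 9 genes, against 37.4% of all windows. *Srebf1* has 3 windows and *Me1* has 2. CACGTG, the canonical E-box to which CLOCK-BMAL1 can bind, was found in 1 of the 12 windows, that of *Elovl5*, and in 7.15% of all windows. The GC box GGGCGG was in 4 of the 12 windows, from 3 genes, and in 35.7% of all windows, and AGGTCA, to which nuclear receptors bind and which forms the core of an RRE, was in 2 of the 12 windows and in 16.3% of all windows. Both strands were searched in every case. 3 windows are shown up to the base before the RefSeq start site, as examples of genes with different phases. The common waves described further on peaked at CT18.9 for *Fasn*, CT17.2 for *Thrsp* and CT1.5 for *Elovl5*. Capitals mark CCAAT or its complement ATTGG and, in *Elovl5*, also CACGTG. The first lies at chr11:120824548-120824797 on the minus strand, the second at chr7:97417551-97417800 on the minus strand and the third at chr9:77917115-77917364 on the plus strand.

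Fasn: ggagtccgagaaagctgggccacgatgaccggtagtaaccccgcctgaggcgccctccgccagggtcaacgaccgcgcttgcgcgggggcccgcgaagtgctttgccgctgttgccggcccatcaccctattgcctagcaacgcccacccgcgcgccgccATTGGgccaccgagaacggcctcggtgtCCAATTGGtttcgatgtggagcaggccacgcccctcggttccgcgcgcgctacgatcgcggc

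Thrsp: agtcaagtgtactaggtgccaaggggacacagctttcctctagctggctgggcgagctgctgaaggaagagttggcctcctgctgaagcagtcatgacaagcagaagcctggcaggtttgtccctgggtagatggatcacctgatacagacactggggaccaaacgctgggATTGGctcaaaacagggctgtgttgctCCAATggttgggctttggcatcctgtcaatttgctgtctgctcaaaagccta

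Elovl5: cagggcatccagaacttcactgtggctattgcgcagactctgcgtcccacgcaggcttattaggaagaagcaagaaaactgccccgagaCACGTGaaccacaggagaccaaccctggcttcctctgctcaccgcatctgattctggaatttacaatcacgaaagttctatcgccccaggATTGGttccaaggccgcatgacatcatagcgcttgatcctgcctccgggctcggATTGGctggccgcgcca

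*Fasn* held 3 matches to CCAAT, of which the 2 nearest the start site, with first bases at -62 and -59, overlap on opposite strands. *Thrsp* held 2, at -79 and -52, both inside its GENCODE gene model. *Elovl5* held 2, at -71 and -17, with its E-box at -161. These are matches of letters and not measured binding sites, and a window without a match says nothing of the rest of the gene.

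The values are FPKM, in which fragment numbers are corrected for transcript length and library size, and are therefore comparable between genes. *Scd1* was the most abundant member, with a mean of 1428 FPKM over the 24 livers. *Thrsp* followed with 362, *Elovl5* with 113, *Srebf1* with 83.1, *Fasn* with 54.0 and *Me1* with 42.7 FPKM. *Elovl6* had a mean of 17.8, *Acaca* of 12.3, *Acacb* of 11.3 and *Pnpla3* of 0.653 FPKM. The order of neighbours was loose. *Fasn* was above *Me1* in 13 of the 24 livers, and both *Thrsp* over *Elovl5* and *Acaca* over *Acacb* held in 16. *Elovl5* exceeded *Srebf1* in 17 livers, *Srebf1* exceeded *Fasn* in 20, and both *Me1* over *Elovl6* and *Elovl6* over *Acaca* held in 21. *Scd1* was above *Thrsp* in 23 livers, and *Acacb* was above *Pnpla3* in all 24, the only neighbours whose ranges did not overlap. How reads shared by *Scd1* and its close paralogs were assigned is not given in the sources used here, and *Srebf1* was counted as 1 gene, so SREBP-1a and SREBP-1c were not separated.

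The label of the mutants was checked on *Bmal1* itself. In WT livers *Arntl* had 12.6 and 13.2 FPKM at CT2 and 0.195 and 0.0919 FPKM at CT10. In ΔRRE livers it ranged over the same hours only from 3.58 and 3.16 at CT2 to 2.50 and 2.096 FPKM at CT10. A 24 h wave was fitted to log2(FPKM + 0.1), and its amplitude, from the mean to the peak, was 2.57 in WT and 0.29 in ΔRRE. The difference between the waves passed limma's test over all genes (adjusted p = 0.0463).

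Hepatocyte markers summed to between 32644 and 51206 FPKM in the 24 livers. Fat tissue also expresses most of the members strongly, and its marker list of 6 genes summed to between 2.16 and 6.95 FPKM in WT and between 1.85 and 7.54 FPKM in ΔRRE. Of its 6 genes, *Retn* was listed at 0 in every liver, and *Adipoq*, *Plin1* and *Lep* had means under 0.1 FPKM. *Cfd* had a mean of 0.510 FPKM and reached 3.17 FPKM in 1 liver. Most of the sum came from *Adrb3*, whose log2 difference of ΔRRE minus WT was -0.42 (adjusted p = 0.397, limma), and its part in the results was not tested. Summed FPKM per library ran from 554170 to 624746, the number of reads behind a value is unknown here, and so no counting error can be given. Red blood cell markers summed to a median of 539 FPKM in WT and 776 FPKM in ΔRRE and stood apart in 2 ΔRRE livers, with 2819 FPKM in CT14 replicate 1 and 2765 FPKM in CT10 replicate 1 against at most 1260 in the others, and results that differ without these livers are given with both values. In whole liver, fewer cells of a type and less RNA per cell cannot be told apart.

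**Figure D1:**
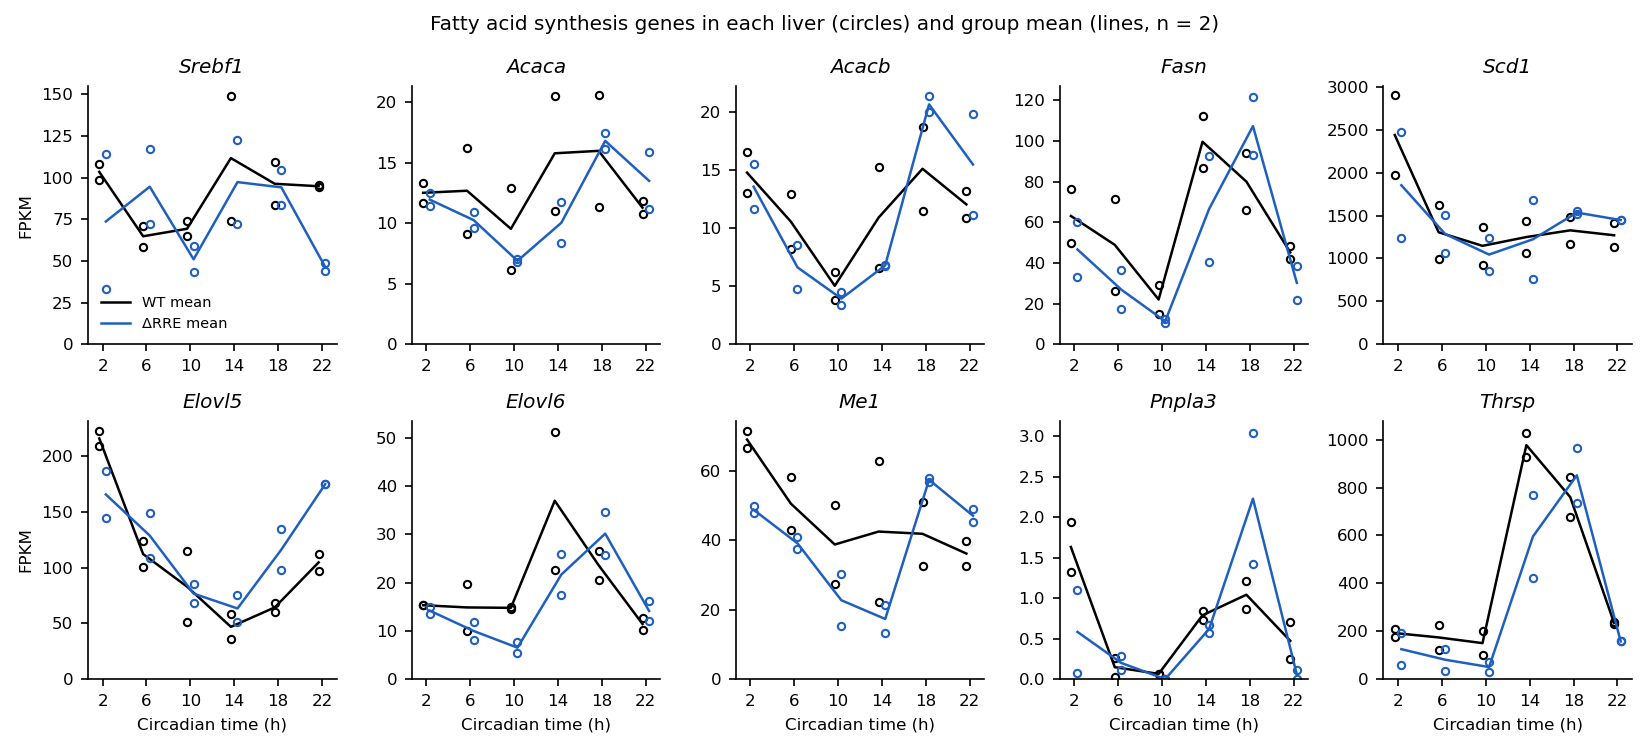
FPKM (y axes, from 0, with a scale for each gene) of the 10 fatty acid synthesis genes against circadian time (x axes, h), with each liver as a circle and the mean of 2 livers as a line, WT in black and ΔRRE in blue. *Thrsp* and *Fasn* were low at CT10 and high at CT14 or CT18, whereas *Elovl5* was lowest at CT14 in both genotypes.

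Time of day moved most of the pathway. A wave common to both genotypes passed limma's test, at an adjusted p under 0.05 over the 11244 genes tested (mean FPKM of 1 or more), in 6 of the 9 members tested, against 30.6% of all those genes. These were *Acacb*, *Fasn*, *Elovl5*, *Elovl6*, *Me1* and *Thrsp*. *Pnpla3* was below the limit of 1 FPKM and was not tested. With time point as a factor and no wave shape assumed, 5 of the 9 passed, all of those except *Me1*, against 26.6% of all genes. The median amplitude of the 9 members was 0.61 on the log2 scale and that of all genes 0.17. Without the 2 livers rich in red blood cell mRNA, 6 members again had a common wave and 5 passed by time point, but *Scd1* entered the first count (adjusted p = 0.0313, limma) and *Fasn* (0.0511) and *Me1* (0.143) left it. The amplitude of *Fasn* was then 0.75, against 0.81 with all livers, and *Fasn* still passed by time point, whereas the amplitude of *Me1* was 0.34, against 0.51.

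*Thrsp*, which encodes Spot 14, a nuclear protein induced by thyroid hormone and carbohydrate that promotes lipogenesis, had the largest amplitude of the 9 members tested. In WT it had 174 and 210.5 FPKM at CT2, 227 and 121 at CT6, 99.5 and 200.8 at CT10, 925 and 1028 at CT14, 844 and 676 at CT18, and 238 and 229.9 at CT22. In ΔRRE the values were 58.4 and 191 at CT2, 35.8 and 126 at CT6, 29.8 and 70.8 at CT10, 421 and 769.9 at CT14, 967 and 735 at CT18, and 157 and 157 at CT22. In both genotypes every liver of CT14 and CT18 was above every liver of the other time points. The common wave had an amplitude of 1.61 ± 0.24 (SE) and its peak at CT17.2 ± 0.58 h (adjusted p = 0.000119, limma). In each genotype by itself the wave passed, but in neither when genes of low level were also tested (adjusted p = 0.0850 in WT and 0.140 in ΔRRE, limma). The mean of the highest time point was 6.51 times that of the lowest in WT and 16.9 times in ΔRRE.

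*Fasn*, fatty acid synthase, followed a similar course. WT livers had 49.7 and 76.6 FPKM at CT2, 71.5 and 26.4 at CT6, 29.2 and 14.9 at CT10, 86.9 and 112 at CT14, 66.1 and 94.0 at CT18, and 48.2 and 42.1 at CT22. ΔRRE livers had 33.0 and 60.3 at CT2, 17.2 and 36.6 at CT6, 12.2 and 10.4 at CT10, 40.3 and 92.8 at CT14, 122 and 93.2 at CT18, and 21.8 and 38.6 at CT22. CT10 was lowest in both genotypes, with 22.0 ± 10.1 FPKM (SD, n = 2) in WT and 11.3 ± 1.33 in ΔRRE, and its livers did not overlap with those of the highest time point. The common wave had an amplitude of 0.81 ± 0.23 and peaked at CT18.9 (adjusted p = 0.0260, limma), a call that was lost without either of the ΔRRE livers of CT18 (0.0621 without replicate 1 and 0.0563 without replicate 2).

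The carboxylases differed in how firmly a wave could be called. *Acacb*, whose product sits at mitochondria and makes the malonyl-CoA that restrains fatty acid oxidation, had in WT 13.0 and 16.6 FPKM at CT2, 12.9 and 8.23 at CT6, 6.23 and 3.85 at CT10, 15.3 and 6.58 at CT14, 11.5 and 18.8 at CT18, and 10.9 and 13.2 at CT22. In ΔRRE it had 11.6 and 15.6 at CT2, 4.74 and 8.53 at CT6, 3.37 and 4.49 at CT10, 6.86 and 6.75 at CT14, 21.4 and 20.0 at CT18, and 11.1 and 19.9 at CT22. Its common wave had an amplitude of 0.85 ± 0.14 with a peak at CT21.6 (adjusted p = 0.000283, limma). *Acaca*, which supplies the cytosolic malonyl-CoA for synthesis, ranged from 6.16 to 20.6 FPKM in WT and from 6.76 to 17.5 FPKM in ΔRRE. Its time-point means were highest at CT18 and lowest at CT10 in both genotypes, and those livers overlapped in WT but not in ΔRRE. Its common wave of amplitude 0.33 did not pass (adjusted p = 0.0614, limma). That p fell under the threshold without WT CT6, CT10, CT14 or CT18 replicate 1 or CT22 replicate 2, to 0.0235 at the lowest, and was 0.0376 after rescaling of the libraries.

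The elongases had different phases. *Elovl5*, which lengthens polyunsaturated fatty acids, had in WT 222 and 209 FPKM at CT2, 124 and 100.4 at CT6, 115 and 51.3 at CT10, 58.1 and 35.7 at CT14, 68.5 and 60.1 at CT18, and 97.2 and 112 at CT22. In ΔRRE it had 144 and 187 at CT2, 109 and 149 at CT6, 85.0 and 68.4 at CT10, 75.6 and 51.2 at CT14, 135 and 97.7 at CT18, and 175 and 175 at CT22. It was thus lowest at CT14, where *Thrsp* and *Fasn* were high. Its common wave had an amplitude of 0.83 ± 0.10 and a peak at CT1.5 ± 0.46 h (adjusted p = 7.78e-06, limma), and it passed in each genotype by itself, with 0.00379 in WT and 0.00388 in ΔRRE. *Elovl6*, which lengthens palmitate to stearate, had in WT 15.3 and 15.3 FPKM at CT2, 19.7 and 10.1 at CT6, 14.6 and 15.0 at CT10, 51.3 and 22.7 at CT14, 20.6 and 26.6 at CT18, and 12.6 and 10.3 at CT22. In ΔRRE it had 13.5 and 14.9 at CT2, 8.12 and 11.8 at CT6, 5.35 and 7.68 at CT10, 17.5 and 25.9 at CT14, 34.7 and 25.7 at CT18, and 12.1 and 16.2 at CT22. The highest mean was at CT14 in WT, where 1 liver with 51.3 FPKM stood above all others, and at CT18 in ΔRRE. Its common wave peaked at CT17.1 with an amplitude of 0.61 ± 0.16 (adjusted p = 0.0141, limma).

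*Me1*, cytosolic malic enzyme and a source of NADPH, had in WT 71.6 and 66.6 FPKM at CT2, 58.2 and 43.0 at CT6, 50.2 and 27.5 at CT10, 63.0 and 22.1 at CT14, 32.7 and 51.2 at CT18, and 39.9 and 32.5 at CT22. In ΔRRE it had 47.8 and 49.9 at CT2, 40.9 and 37.4 at CT6, 15.2 and 30.2 at CT10, 13.4 and 21.3 at CT14, 56.9 and 58.2 at CT18, and 45.3 and 48.9 at CT22. The ΔRRE livers of CT10 and CT14 were below all other ΔRRE livers, whereas the WT livers of CT14 lay far apart. The common wave had an amplitude of 0.51 ± 0.14 and a peak at CT0.50 (adjusted p = 0.0279, limma). Leaving out WT CT2 replicate 1, WT CT14 replicate 2, ΔRRE CT10 replicate 1 or either ΔRRE liver of CT14 took this p over the threshold, to at most 0.0646.

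*Scd1*, stearoyl-CoA desaturase, had its highest WT values at CT2, with 1975 and 2904 FPKM, and the other WT livers ranged from 922 to 1623. In ΔRRE, CT2 held the highest value, 2473 FPKM, beside one of 1236, and the other livers ranged from 766 to 1681. The common wave, with an amplitude of 0.32 and a peak at CT0.24, did not pass (adjusted p = 0.0711, limma), but passed without WT CT22 replicate 2 (0.0380) or ΔRRE CT14 replicate 1 (0.0310).

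*Srebf1*, the regulator itself, had the smallest common wave of the 9. WT livers had 108 and 98.6 FPKM at CT2, 70.9 and 58.6 at CT6, 73.7 and 64.8 at CT10, 74.2 and 149 at CT14, 109 and 83.5 at CT18, and 94.3 and 95.3 at CT22. ΔRRE livers had 33.1 and 114 at CT2, 72.1 and 117 at CT6, 58.7 and 43.2 at CT10, 71.8 and 123 at CT14, 83.7 and 104 at CT18, and 48.9 and 43.9 at CT22. At CT2 in ΔRRE and at CT14 in WT the 2 livers lay further apart than the highest and lowest time-point means of that genotype. The amplitude was 0.18 ± 0.14 on the log2 scale, and neither the wave (adjusted p = 0.562, limma) nor time point (0.356) passed.

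*Pnpla3*, a lipid droplet protein whose gene is an SREBP-1c target, was present at low levels. These differed between time points, which was not tested. In WT it had 1.32 and 1.94 FPKM at CT2 and 0.870 and 1.22 at CT18, but 0.0637 and 0.0644 at CT10. In ΔRRE it had 1.42 and 3.04 FPKM at CT18 and was listed at 0 in both livers of CT10. Its ΔRRE livers of CT2 differed widely, with 0.0704 and 1.10 FPKM. The third liver listed at 0 was ΔRRE CT22 replicate 2. CT10, its lowest time point in both genotypes, was also the lowest of *Fasn*, *Thrsp*, *Acaca*, *Acacb* and *Scd1*.

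The waves were then fitted in each genotype separately. In WT, 2 of the 9 members passed, *Elovl5* and *Thrsp* (adjusted p = 0.0144 for the latter, limma), against 10.3% of all genes tested. In ΔRRE, 4 passed, *Acaca* (0.0428), *Acacb* (0.00590), *Elovl5* and *Thrsp* (0.0279), against 4.57% of all genes. The larger of these counts does not show that more members were rhythmic in ΔRRE, since the difference between the waves was tested as such and is given next. *Acaca* passed in 2 of the 12 fits that left out 1 ΔRRE liver, and not without the 2 livers rich in red blood cell mRNA (0.139), which left 3 members. Without CT2, CT6, CT14 or CT18 replicate 1 or CT18 replicate 2 of ΔRRE the count was 2, since *Thrsp* did not pass either (up to 0.0822). The 3 criteria of the study, with the p of this wave under 0.3 in place of that of BIO_CYCLE, a ratio over 1.5 between the highest and the lowest mean of a time point, and a largest SD within 1.5 times the difference of those means, were met by 8 of the 9 members in WT, all but *Acaca*, and by 37% of all genes. In ΔRRE they were met by 8 of the 9 members, all but *Srebf1*, and by 35.4% of all genes.

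**Figure D2:**
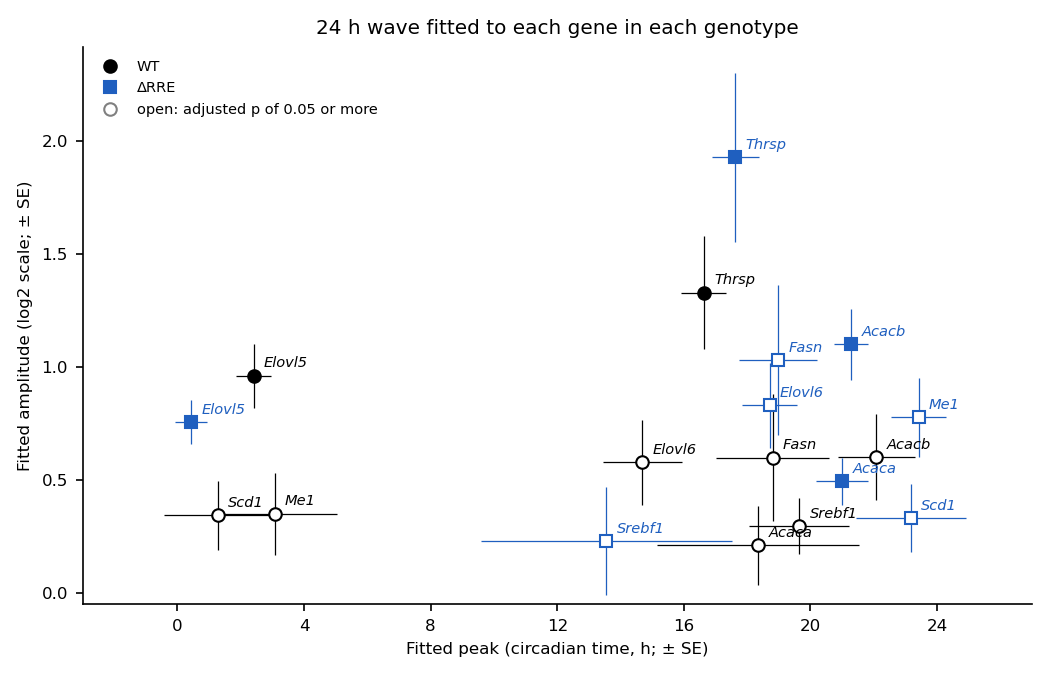
Amplitude (y axis, log2 scale) against peak time (x axis, circadian time in h) of the 24 h wave fitted to each of 9 fatty acid synthesis genes, WT as black circles and ΔRRE as blue squares, with bars of 1 SE and open symbols for an adjusted p of 0.05 or more. *Thrsp* had the largest amplitude in both genotypes, 1.33 in WT and 1.93 in ΔRRE, and *Elovl5* peaked at CT2.4 in WT and CT0.42 in ΔRRE.

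None of the 9 members passed limma's test of a difference between the waves of the genotypes, against 0.00889% of all genes, which is 1 gene, *Arntl*. At an unadjusted p under 0.05 there was 1 member, *Elovl5*, and 319 genes in all. Its amplitude was 0.96 ± 0.14 in WT and 0.75 ± 0.10 in ΔRRE, and its peak came 1.98 h earlier in ΔRRE. Two-sided exact permutation over the 23328 divisions of the 4 livers of each time point into 2 and 2 gave p = 0.134 for this difference, against an unadjusted p of 0.0487 by limma. The exact permutation p was 0.0141 for *Elovl6*, against an unadjusted p of 0.0535 by limma. Its peak lay at CT14.7 ± 1.2 h in WT and CT18.7 ± 0.87 h in ΔRRE. The other 7 members had exact p-values from 0.0978 to 0.687. The amplitude was smaller in ΔRRE in 3 of the 9, *Srebf1*, *Scd1* and *Elovl5*, and larger in 6, by 0.60 for *Thrsp*, 0.50 for *Acacb*, 0.43 for both *Fasn* and *Me1*, 0.28 for *Acaca* and 0.25 for *Elovl6*.

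The mean level over the day was compared next, with time point as a factor. None of the 9 members passed limma's test, as 0% of all genes did, and at an unadjusted p under 0.05 there were 2 members and 1002 genes. The estimate was below 0 in 8 of the 9 members, with a median of -0.31 on the log2 scale, and in 34.5% of all genes, whose median was 0.04. After rescaling of the libraries, which brought the median of all genes to -0.00168, it was below 0 in 8 members with a median of -0.35. Without the 2 livers rich in red blood cell mRNA it was below 0 in 8 members, but the median was -0.14.

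The largest difference was that of *Thrsp*, which was lower in ΔRRE by the means of 5 of the 6 time points. Its log2 difference was -0.83 ± 0.24, with a 95% interval from -1.33 to -0.32. The unadjusted p was 0.00266 by exact permutation and 0.00263 by limma, and the p adjusted over all genes was 0.343 by limma. The estimate was -0.65 without the 2 livers rich in red blood cell mRNA, and from -0.93 to -0.69 when any 1 liver was left out. *Fasn* followed with -0.51 ± 0.21 (interval -0.93 to -0.08), was also lower in 5 of 6 time-point means, and was at -0.41 without those 2 livers. The unadjusted p of *Fasn* was 0.0391 by exact permutation and 0.0230 by limma, and the adjusted p was 0.475 by limma. *Srebf1* with -0.32, *Me1* with -0.32, *Elovl6* with -0.31, *Acaca* with -0.15, *Acacb* with -0.15 and *Scd1* with -0.05 had intervals that included 0. Single livers moved some of these by over 1.5 times. *Srebf1* was at -0.19 without ΔRRE CT2 replicate 1, and *Me1* at -0.18 without WT CT14 replicate 1. *Acaca* came to between -0.10 and -0.07 without WT CT6, CT10 or CT14 replicate 1 or ΔRRE CT14 replicate 1. *Acacb* came to between -0.10 and -0.05 without WT CT6, CT10 or CT14 replicate 1 or ΔRRE CT6 replicate 1, and to -0.23 and -0.22 without WT CT18 replicate 1 and ΔRRE CT22 replicate 2. Without the 2 livers rich in red blood cell mRNA *Elovl6* was at -0.16, *Me1* at -0.13, *Acacb* at -0.09 and *Acaca* at -0.08. The interval also included 0 for *Elovl5*, the only member with a higher estimate in ΔRRE, 0.30 with an interval from -0.00243 to 0.61. These intervals leave room for a decrease as large as 0.72 on the log2 scale in *Me1* and *Srebf1*, so that equal levels are not shown for them.

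The direction of the estimates differed by time of day. Each count of members at a time point rests on the same 2 livers against 2. Members often differed together between livers of a group, so such a count is not 9 separate results. The ΔRRE mean was below the WT mean in 9 of 9 members at CT2, 7 at CT6, 9 at CT10 and 8 at CT14, but in 1 of 9 at CT18 and 3 at CT22. At CT18 the exception was *Srebf1*. The share of all genes with a lower mean was not computed, but genes at large also leaned higher at CT18. Both ΔRRE livers were higher in 24.5% and lower in 6.72% of all genes at CT18, against 17.4% and 15.4% at CT10. Counting only members whose livers did not overlap between the genotypes, both ΔRRE livers were lower for *Srebf1*, *Fasn*, *Elovl6* and *Thrsp* at CT10, 4 of 9 against 15.4% of all genes. Both were higher for *Acacb*, *Scd1*, *Elovl5* and *Me1* at CT18, 4 of 9 against 24.5% of all genes. At CT22, *Scd1*, *Elovl5* and *Me1* were higher in both ΔRRE livers and *Srebf1*, *Fasn* and *Thrsp* lower in both, against 21.7% and 15.4% of all genes. At CT14, where both WT livers of *Thrsp* (925 and 1028 FPKM) were above both ΔRRE livers (421 and 769.9), *Me1* was the other such gene, 2 of 9 against 10.9% of all genes. At CT2, *Elovl5*, *Elovl6* and *Me1* were lower in both ΔRRE livers, 3 of 9 against 10.9% of all genes. At CT6, *Me1* was lower in both and *Srebf1* higher in both, 1 of 9 each against 11.8% and 16.2% of all genes.

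No comparison of members at a single time point passed, 0 of 54 in limma's test with the spread pooled over the 12 groups. Over all genes the share past the threshold was 0.00889% at CT2, 0% at CT6, 0.0178% at CT10, 0.0267% at CT14, 0.00889% at CT18 and 0% at CT22. At an unadjusted p under 0.05 there were 7 of the 54, against 4.15% of the tests of all genes, and each compares 2 livers with 2. They were *Thrsp* at CT6 (log2 difference -1.30) and CT10 (-1.62), *Elovl6* at CT10 (-1.19), *Me1* at CT14 (-1.14), *Srebf1* at CT22 (-1.03), and *Elovl5* at CT18 (0.84) and CT22 (0.74). The smallest adjusted p of a member was 0.467, for *Elovl6* at CT10, where WT had 14.6 and 15.0 FPKM and ΔRRE 5.35 and 7.68. The CT10 and CT14 groups each hold 1 of the livers rich in red blood cell mRNA.

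**Figure D3:**
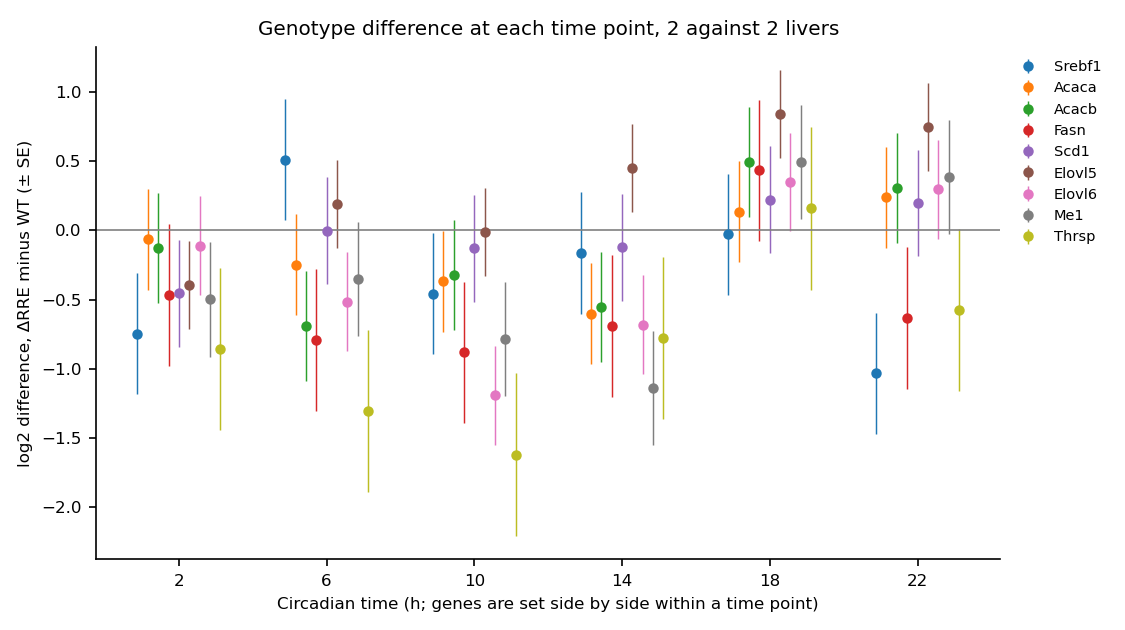
Log2 difference of ΔRRE minus WT (y axis, with bars of 1 SE from the fit that pools the spread of 12 groups) at each circadian time (x axis, h) for 9 fatty acid synthesis genes, one colour a gene. All 9 points lie below 0 at CT2 and CT10, and 8 of 9 lie above 0 at CT18.

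The precision of these comparisons depended on how alike livers of the same group were. The SD between livers of a group was between 0.35 for *Elovl5* and 0.67 for *Thrsp* on the log2 scale, against a median of 0.25 over all genes, and the *Thrsp* SD exceeded that of 95.03% of genes. The members often differed together. In WT at CT6 replicate 1 was higher than replicate 2 for 9 of 9 members, with a median log2 difference of 0.72. In ΔRRE replicate 2 was higher for 8 of 9 at CT2 and for 8 of 9 at CT6, with medians of -0.42 and -0.54 for replicate 1 minus 2. At WT CT22, in contrast, members differed by a median of 0.21 in size, as all genes did (0.21). Over the 36 pairs of members, Pearson's r across the 24 livers had a median of 0.46 and was above 0 in 31. With group means removed it had a median of 0.33 and was above 0 in 29. The closest pair by time and genotype was *Elovl6* with *Thrsp* (r = 0.88), the closest between livers of a group was *Acaca* with *Acacb* (0.80), and *Elovl5* ran against *Thrsp* (-0.41) over the 24 livers. These correlations are descriptions, and the genes share libraries.

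**Figure D4:**
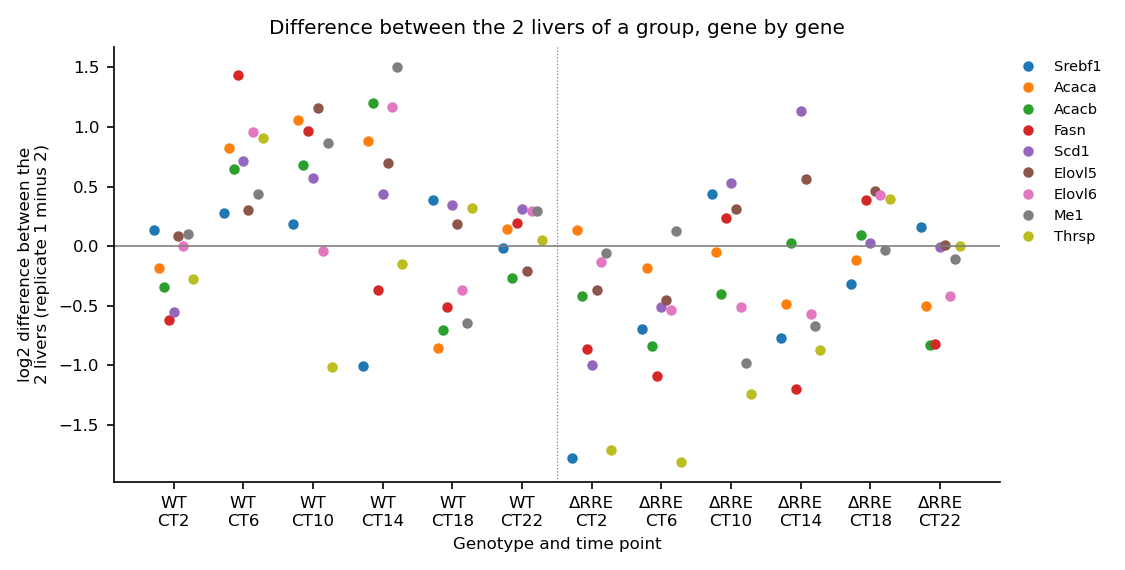
Log2 difference between the 2 livers of each group (y axis, replicate 1 minus replicate 2) for 9 fatty acid synthesis genes (colours) in the 12 groups of genotype and circadian time (x axis). All 9 points lie above 0 in WT CT6, and 8 of 9 lie below 0 in ΔRRE CT2 and in ΔRRE CT6.

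The genes most like the members were named by their correlation with the mean standardised profile of the 9. Over the 24 livers these included *Acly* (r = 0.89), which makes cytosolic acetyl-CoA from citrate, *Aco1* (0.87), *Pgd* (0.86), an NADPH-producing enzyme of the pentose phosphate pathway, and *Tmem14c* (0.86). The median over 11235 other genes was 0.0145. Between livers of a group, over 12 pairs, they included *Tuba1c* (0.92), *Cic* (0.90), *Celsr1* (0.89) and *Creb3l2* (0.89), with a median of 0.0587 over the other genes. Among the members themselves *Acacb* (0.90) and *Fasn* (0.88) were closest to the mean profile of which they are part, and *Elovl5* (0.32) and *Srebf1* (0.48) were farthest.

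Genes that act on or around the pathway were compared by list, and none of these genes passed the test of level. Their counts with a common wave stand against the 30.6% of all genes tested, and a share near that is not particular to a list. Of 12 regulators of SREBP and lipogenesis, 4 had a common wave: *Insig2*, which holds the SREBP complex in the endoplasmic reticulum (amplitude 1.05, peak at CT0.92), *Mlxipl*, which encodes ChREBP (0.41, CT22.6), the SREBP escort *Scap* (0.32, CT5.0) and *Nr1h3*, which encodes LXRα (0.16). Of 10 genes that supply substrate and NADPH, 4 passed, among them *Acly* (0.71, CT20.7), *Acss2* (0.61, CT0.43) and *Pgd* (0.30). The peak of *Acly* lay within 2 h of that of *Fasn*. Of the 9 other elongases, desaturases and their partners tested, 5 passed, with *Elovl3* (2.43, CT23.9), *Elovl1* (0.40, CT21.3) and *Fads2* (0.28, CT15.2) widest. Of 10 tested genes of glyceride synthesis, 6 passed, with *Lpin1* (1.38, CT12.1), *Lpin2* (0.54, CT10.0) and *Agpat2* (0.43, CT21.7) widest.

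The 17 genes of the cholesterol synthesis list, the pathway under SREBP-2, served as the nearest relatives. A common wave passed in 3 of them, against 30.6% of all genes, among them *Hmgcs1* (amplitude 1.06, CT1.1) and *Pmvk* (0.71, CT22.6). The 3 criteria were met by 13 in WT, against 37% of all genes, and by 15 in ΔRRE, against 35.4%. Their median log2 difference in level was -0.05, and 15 of the 17 estimates were below 0, against 34.5% of all genes. In limma's test of level 0 of the 17 had an unadjusted p under 0.05. The difference between the lists was not tested.

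Genes that rise in fasting and are restrained by insulin were examined because the members respond in the opposite way to feeding. Of 11 genes tested of 12, *Fgf21* being too low, 10 had higher estimates in ΔRRE, against 65.5% of all genes, with a median log2 difference of 0.59. None passed the adjusted test of limma, and 5 had an unadjusted p under 0.05, as did 8.91% of all genes. These 5, named after their values were seen, were *Igfbp1* (log2 difference 1.79), an insulin-repressed binding protein, *G6pc* (0.71) and *Pck1* (0.69) of gluconeogenesis, *Pdk4* (0.62), which blocks pyruvate oxidation, and *Cpt1a* (0.20), the entry step of mitochondrial fatty acid oxidation. The time-point means of *Ppara*, also named after its values were seen, were lower in ΔRRE at CT10, CT14 and CT18 and higher at CT2, CT6 and CT22. Without the 2 livers rich in red blood cell mRNA, 11 of 11 genes had higher estimates with a median of 0.62. A common wave passed in 6 of the 11, against 30.6% of all genes, with *Pdk4* (amplitude 1.83, CT23.5), *Pck1* (0.74, CT11.2) and *Acot1* (0.62, CT20.8) widest. Food intake was not among the values used here, and its part in the member and fasting values was not tested.

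**Figure D5:**
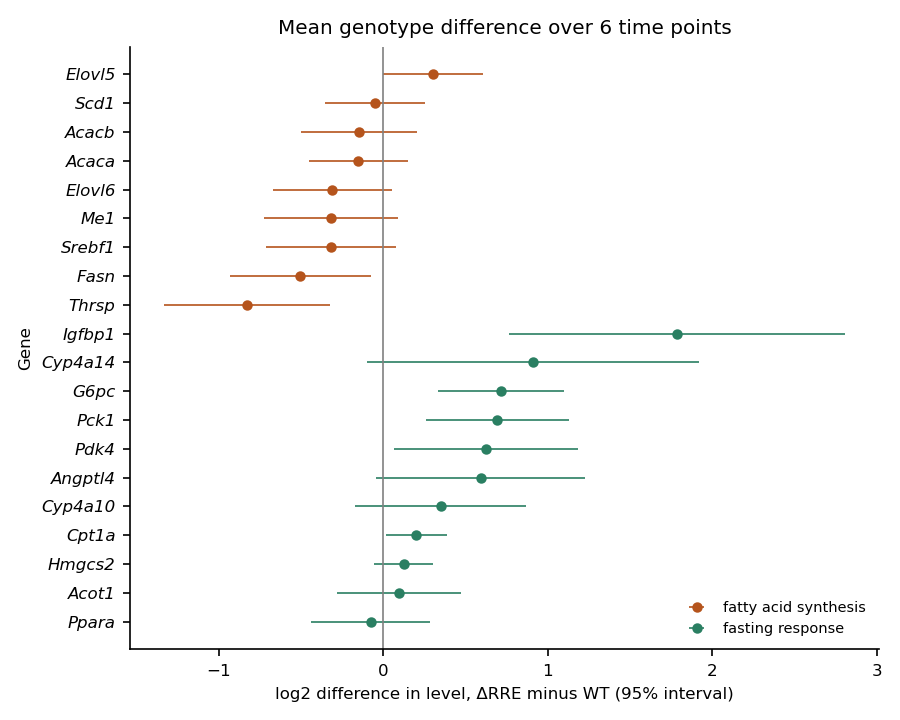
Log2 difference in mean level over 6 time points, ΔRRE minus WT (x axis, with 95% intervals from limma, unadjusted), for 9 fatty acid synthesis genes and 11 fasting response genes (y axis). The intervals of *Thrsp* (-1.33 to -0.32) and *Fasn* (-0.93 to -0.08) lie below 0, and 10 of the 11 fasting response estimates lie above 0.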

How the data were processed

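Poly(A) RNA of 24 mouse livers was sequenced from directional libraries. Per the submitters' processing notes the tools were Trimmomatic 0.39, HISAT2 2.1.0 and StringTie 1.3.5 with the build mm10, and the annotation is not given in the sources used here. The authors deposited FPKM per gene and library, without pooling and without scaling to a common total. The depth of each library was not used here, so the precision of low values is unknown.

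Samples were grouped by genotype and circadian time in their labels. The values were analysed as log2(FPKM + 0.1), so that differences of low genes are understated. Of 54733 genes, 11244 had a mean FPKM of 1 or more and were tested. limma 3.58.1 in R 4.3.3 was used with an intensity trend and Benjamini-Hochberg adjustment over all genes tested, and threshold 0.05. Waves were cosine and sine terms of 24 h. BIO_CYCLE, used by the study, was not run. Exact permutation tests were two-sided. The limma tests of level, common wave and wave difference were tried on simulated data. The p-values of limma rest on the residual spread of each fit. In the test at single time points this is the spread between livers of a group. In the tests of waves, time of day and level it also holds departures of the group means from the fitted model.

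The members, lists, tests and naming rule were chosen with earlier results of these data known. Named outside the members are *Arntl*, the 5 genes most like the members by each correlation, and in each list up to 3 genes of largest amplitude with a common wave, plus those said to be named later. Some genes that this rule names are not reported here. Lists of Kupffer, endothelial, cholangiocyte, stellate and pancreas markers were also summed. The alternatives were other constants, filters, rescaling by the median of ratios, no trend, a shared spread, a replicate block and leaving out each library. Leaving out the 2 libraries highest in erythroid markers was added after the data were seen. Promoter windows were those of RefSeq on GRCm38.p6. Python 3.11.15, pandas 2.3.3, NumPy 2.4.6 and matplotlib 3.10.9 were used.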

Additional observations from a re-analysis of the deposited data

How the results depend on the processing

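Without the filter on low values, the members with a wave numbered 1 in WT, *Thrsp* having left, and 2 in ΔRRE, *Acaca* and *Thrsp* having left, and 4 had a common wave, *Fasn* and *Me1* having left it. Leaving out 1 library at a time gave from 2 to 5 members with a wave in ΔRRE, from 2 to 2 in WT, from 5 to 8 with a common wave and 0 with a difference in level or wave. The level difference of *Scd1*, never called, turned sign in 3 of these fits and ranged from -0.11 to 0.0340 on the log2 scale. The cause was not tested. In the fit with both genotypes sharing a spread, the ΔRRE wave of *Acaca* was not called and those of *Elovl6* and *Me1* were. Constants of 0.01 or 1 FPKM changed no member call.

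Whether replicate numbers pair the samples was not settled. Correlations of the replicate differences between groups ran from -0.14 to 0.30 with a median of 0.0669, over 0.1 in 20 of 66 pairs of groups. For the 6 pairs of the same time point the median was 0.0754 and the highest 0.206. With the replicate block 6 members had a common wave, 2 a wave in WT, 4 in ΔRRE and 0 a level difference, the same counts as without it.

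With 2 livers a group, differences smaller than the spread between livers cannot be shown.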

Other observations

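Markers of other liver cell types had similar ranges in both genotypes. The 5 Kupffer cell markers summed to between 12.1 and 61.9 FPKM in WT and between 22.2 and 56.7 in ΔRRE, and the 4 endothelial markers to between 16.8 and 35.4 and between 18.0 and 31.7. The 4 cholangiocyte markers summed to between 2.81 and 8.17 FPKM in WT and between 2.31 and 8.79 in ΔRRE, and the 3 stellate cell markers to between 25.3 and 69.7 and between 28.9 and 63.7. Pancreas markers summed to at most 0.169 FPKM in any liver.

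The genes whose profile ran most against the mean profile of the fatty acid synthesis genes over the 24 livers were *Brap* (r = -0.82), *Clmn* (-0.82), *Gpcpd1* (-0.81), *Selenoo* (-0.81) and *Slc27a2* (-0.79). *Slc27a2* encodes a very long chain acyl-CoA synthetase of the liver and had a mean of 459.6 FPKM. These genes were named after their values were seen, and the correlations are descriptions.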
